A study of Mus musculus with 4 samples.

Results

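The receptors for G-CSF, GM-CSF, IL-3 and IL-5 were followed in single-cell RNA libraries of mouse bone through their 6 genes, Csf3r, Csf2ra, Csf2rb, Csf2rb2, Il3ra and Il5ra. They were taken by gene symbol, and all 6 were among the 32285 genes that the count matrices list. The cells came from male C57BL/6J mice, 20 weeks old, that received prednisolone, a glucocorticoid (GC), at 6.25 mg/kg/d, or a placebo, and were sampled at week 2 from fracture callus and from trabecular bone. This gave 4 libraries, a control and a GC library for each tissue, with 1 library in each group. The labels describe a subcutaneous slow-release pellet for all groups, whereas the methods of the study give injections in the fracture model, and the number of mice behind each library is not given in the sources used here. Both groups of a tissue were flushed of marrow plugs, crushed and digested with Collagenase II, Dispase II and DNase I.

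These genes encode the receptors of the colony-stimulating and related cytokines. Csf3r encodes the receptor for G-CSF, which works as a pair of identical chains and drives the production and release of neutrophils. The receptors for GM-CSF, IL-3 and IL-5 are each built from a chain of their own (Csf2ra, Il3ra and Il5ra) and a shared signalling chain, the common beta chain Csf2rb. Mice carry another beta chain, Csf2rb2, that serves IL-3. None of these chains is an enzyme itself: binding of the cytokine activates the kinase Jak2, then the STAT factors and the inhibitors of the Socs family that damp the signal.

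All 6 genes are annotated as protein coding on GRCm38. Csf3r lies on chromosome 4 (126024550 to 126044440, plus strand), Il5ra on chromosome 6 (106710357 to 106749037, minus strand), Il3ra on chromosome 14 (14346275 to 14356011, plus strand) and Csf2ra on chromosome 19 (61223957 to 61228429, minus strand). The beta chains are neighbours on chromosome 15: Csf2rb2 at 78282507 to 78305721 on the minus strand and Csf2rb at 78325752 to 78353847 on the plus strand, 20030 bases apart and pointing away from each other. Their transcripts are alike, so it was checked whether reads could be split between them. Of all stretches of 90 bases in the last 500 bases of the annotated transcripts, the part a 3′ library reads, 0.243% of those of Csf2rb2 also occurred in Csf2rb and 3.63% of those of Csf2rb also occurred in Csf2rb2. Over whole transcripts these shares were 8.06% and 5.45%. Csf2rb had more UMIs than Csf2rb2 (20619 against 4186), so that reads of shared stretches would weigh more on the Csf2rb2 count, and how they were assigned was not measured.

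RefSeq promoters (GRCm38.p6, 250 bases before to 50 after the start) were matched for 5 of the 6 members. Those of Csf3r, the member with the highest level in trabecular mature neutrophils, and of Csf2rb2, the member with the highest callus to trabecular ratio within monocytes and mature neutrophils, are printed below, as chr4:126024409-126024708 (plus strand) and chr15:78305672-78305971 (minus strand). Capitals mark matches to GAGGAA, a motif that holds the ETS core GGAA, and to the STAT motif TTCNNNGAA, both searched on both strands. GAGGAA is printed as TTCCTC where it stands on the other strand, and GGAA outside GAGGAA was not searched or marked. These letters are a description and not a measured site.
Csf3r: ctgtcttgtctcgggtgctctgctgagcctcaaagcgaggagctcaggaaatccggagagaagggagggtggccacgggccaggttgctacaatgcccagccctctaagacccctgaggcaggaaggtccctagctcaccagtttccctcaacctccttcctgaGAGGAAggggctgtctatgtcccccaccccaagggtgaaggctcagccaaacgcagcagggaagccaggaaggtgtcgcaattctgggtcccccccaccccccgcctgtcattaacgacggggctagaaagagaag
Csf2rb2: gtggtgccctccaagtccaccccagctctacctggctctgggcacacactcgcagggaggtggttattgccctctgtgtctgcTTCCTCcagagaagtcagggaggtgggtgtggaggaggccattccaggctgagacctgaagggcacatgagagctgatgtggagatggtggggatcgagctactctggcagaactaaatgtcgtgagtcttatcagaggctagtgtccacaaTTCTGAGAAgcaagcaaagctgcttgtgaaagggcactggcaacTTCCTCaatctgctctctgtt
The Csf3r window held GAGGAA at -86 from the start. The Csf2rb2 window held it at -167 and 29 and was the only one of the 5 with TTCNNNGAA, at -15. Csf2ra held GAGGAA at -14 and -8, Il5ra at 41, and Il3ra had no match to either motif. GAGGAA occurs in 28.3% and TTCNNNGAA in 8.30% of 32851 promoters of this length, and no overlap between the motifs was found in these windows.

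The cells kept numbered 6714 and 6890 in callus (control, then GC, as in paired values here unless said otherwise) and 3832 and 4604 in trabecular bone. Their medians lay between 3269 and 6293 UMIs per cell, a UMI being the tag that tells captured RNA molecules apart. Of 21990 distinct barcodes, 50 were in more than 1 library. The GC callus matrix holds only barcodes already called as cells, and the others hold empty droplets too. Cells were clustered in each tissue without the 6 genes and without their pathway genes, and clusters were named from marker lists, which left 870 and 1240 of the callus cells and 95 and 90 of the trabecular cells without a name. Callus clusters 15 (led by Apoc2, Cd36, Ace and Cx3cr1) and 16 (led by H2-Aa, H2-Eb1, H2-Ab1 and Cd74) and sub-cluster 1 of cluster 20 (led by Mpo, Car2, Ctla2a and Cpa3) are given by number. Callus monocytes are mostly cluster 5, which carried 8 of 9 monocyte markers but had 1 of them (Ms4a6c) and 1 marker of another class (Chil3) among its 10 leading genes. Levels are given as CPM, the UMIs of a gene per 1000000 UMIs summed over the cells of a class, and intervals are 95% intervals that cover counting error only. With 1 library per group there is no replicate error, no test was run, and treatment and library cannot be told apart.

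**Figure D1:**
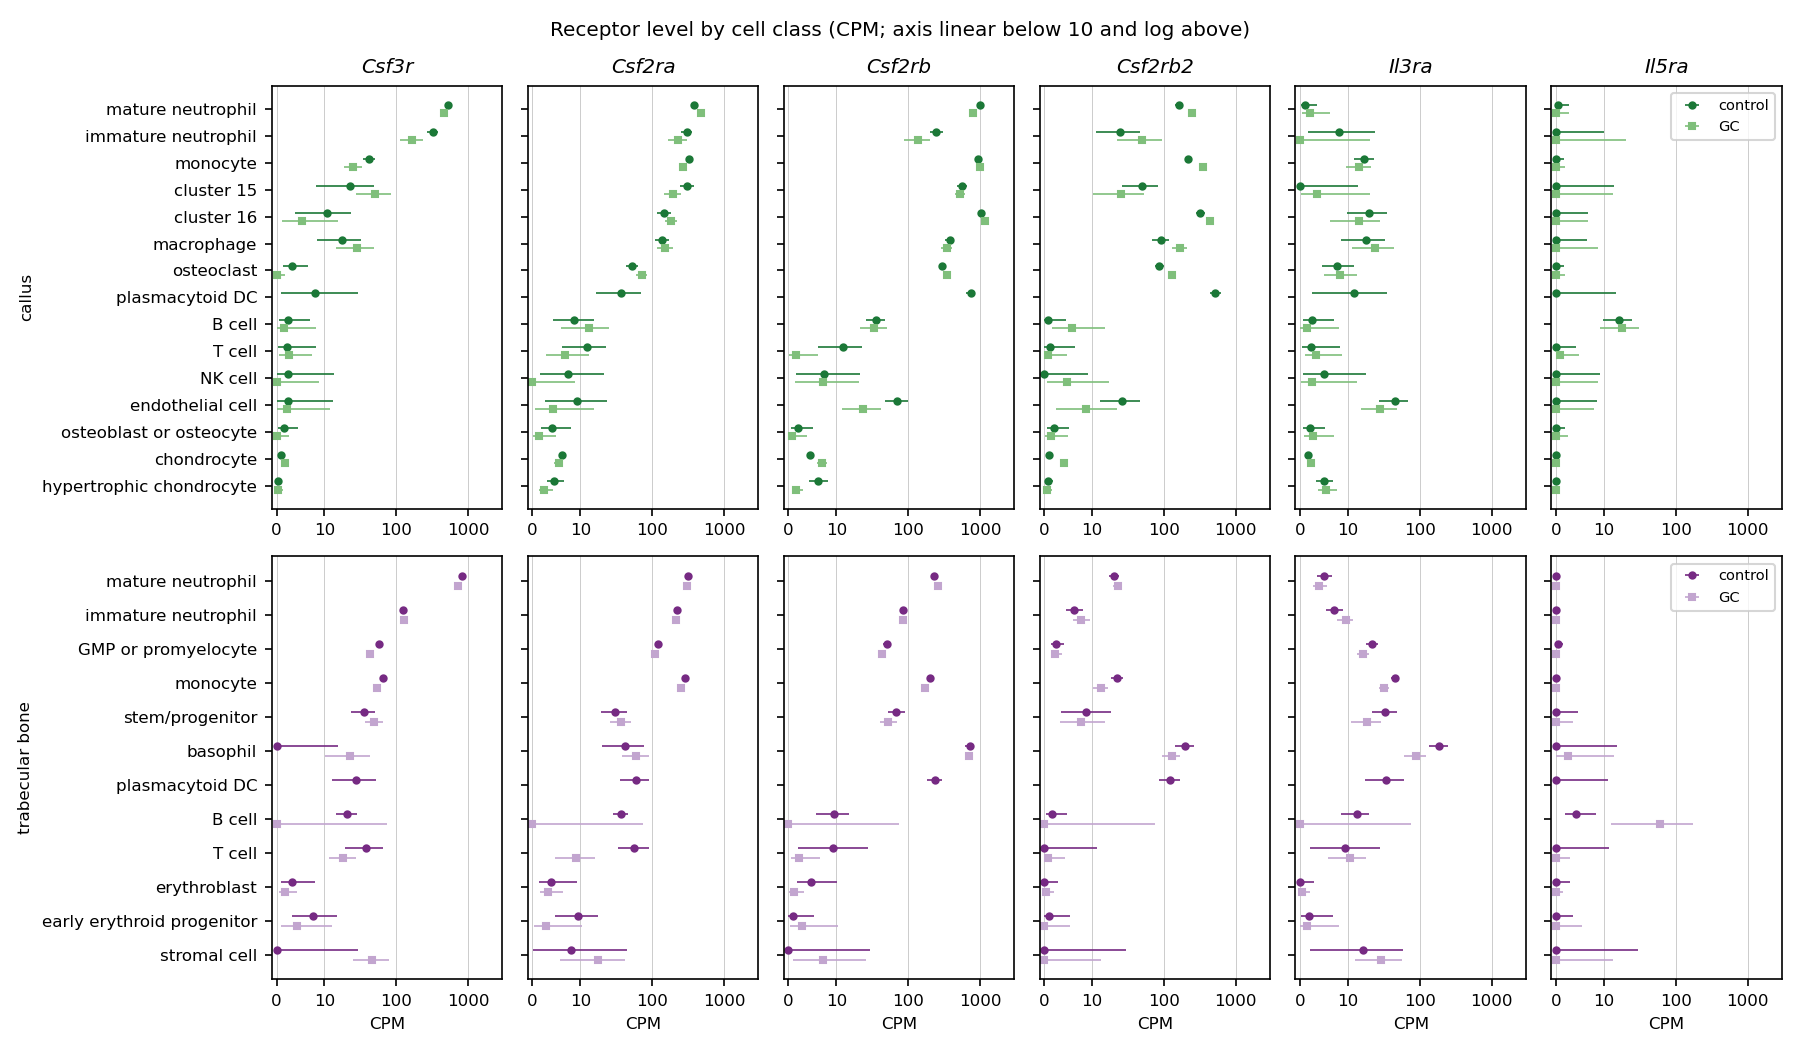
Level of the 6 receptor genes in each cell class of callus (top) and trabecular bone (bottom), in CPM on an axis that is linear below 10 and log above. Circles are control and squares GC libraries, and bars are exact Poisson 95% intervals. Csf3r is highest in mature neutrophils of both tissues, Csf2rb2 reaches 519.5 CPM in control callus plasmacytoid dendritic cells, and Il5ra has its highest level in B cells.

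Csf3r was the most restricted of the well-detected members. Of its 15854 UMIs in trabecular bone, 75.6% were in mature neutrophils, and of its 2390 UMIs in callus, 73.5%. Its level in mature neutrophils was 827 and 722 CPM in trabecular bone and 532 and 468 CPM in callus. Immature neutrophils came next among the named classes, at 122.8 and 128 CPM in trabecular bone and 320.5 and 168 CPM in callus. Monocytes were lower in each of the 4 libraries, from 25.1 CPM in GC callus to 66.3 CPM in control trabecular bone. Chondrocytes, which make cartilage and were taken as a class that should lack the receptor, were at 0.837 CPM in control and 1.67 CPM in GC callus.

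The share of cells with a Csf3r UMI was also highest in mature neutrophils. After each cell was thinned to 1000 UMIs, 54.2% of mature neutrophils held one in both trabecular libraries, against 37.7% in control and 33.9% in GC callus. Immature neutrophils were at 14.2% and 14.0% in trabecular bone and at 30.2% and 20.0% in callus. The background class was low: 1 of 1704 control callus chondrocytes (0.0587%) and 16 of 1897 GC callus chondrocytes (0.843%) held a Csf3r UMI after thinning. Their median depth before thinning was 25621 and 5296 UMIs, against 1269 and 1139 UMIs in callus mature neutrophils, so that 283 and 368 of the latter were too shallow to be thinned. Without thinning the shares were 93.9% and 90.1% in trabecular mature neutrophils, 44.5% and 38.1% in callus mature neutrophils and 2.16% and 1.86% in callus chondrocytes.

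Mature neutrophils were not uniform in Csf3r. In trabecular bone they fell into 10 clusters, whose level ran from 323 CPM in sub-cluster 1 of cluster 2 to 1291 CPM in cluster 1. Clusters 7 and 4 were next, at 1175 and 1109 CPM, and the other 7 lay at 577 CPM or lower. The high clusters were in both conditions: cluster 1 held 841 control and 33 GC cells, whereas clusters 4 and 7 held 516 and 443 GC cells and 3 and 0 control cells. Control and GC mature neutrophils therefore sat almost entirely in different clusters, and the class is compared as a whole below. The 6 clusters of trabecular immature neutrophils ranged from 45.5 to 237 CPM.

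Along the order from granulocyte-monocyte progenitor or promyelocyte through immature to mature neutrophil, Csf3r was higher at each step in every library. In control trabecular bone it was at 57.9, 122.8 and 827 CPM, so mature neutrophils exceeded the progenitors 14.3-fold (12.7 to 16.1). In GC trabecular bone it was at 43.2, 128 and 722 CPM, and the ratio was 16.7 (14.9 to 18.9). Most of this lay in the last step in trabecular bone, where mature exceeded immature cells 6.73-fold in control and 5.63-fold in GC. In callus the last step was smaller, 1.66-fold (1.37 to 2.02) in control and 2.78-fold (1.94 to 4.13) in GC, and only 13 and 9 progenitors stood at its start.

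The beta chains and Csf2ra were higher along the same order, and the private IL-3 chain lower. In control trabecular bone mature neutrophils exceeded progenitors 2.59-fold (2.38 to 2.83) for Csf2ra, 4.49-fold (3.95 to 5.12) for Csf2rb and 8.34-fold (4.74 to 16.01) for Csf2rb2. Il3ra went the other way, from 21.4 CPM in progenitors to 7.04 CPM in immature and 4.87 CPM in mature neutrophils, a ratio of 0.227 (0.153 to 0.331). GC trabecular bone had ratios of 2.78, 5.97 and 9.80 for Csf2ra, Csf2rb and Csf2rb2 and 0.243 for Il3ra. The classes were named from markers of neutrophil maturation and not from these genes, but they share their libraries and the order is a description. From immature to mature cells the summed immature neutrophil markers fell in every library. The summed mature neutrophil markers fell too in callus (control 224720 to 64929 CPM, GC 190177 to 60548 CPM) and in GC trabecular bone (343815 to 265240 CPM). In control trabecular bone they went from 361360 to 367148 CPM.

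**Figure D2:**
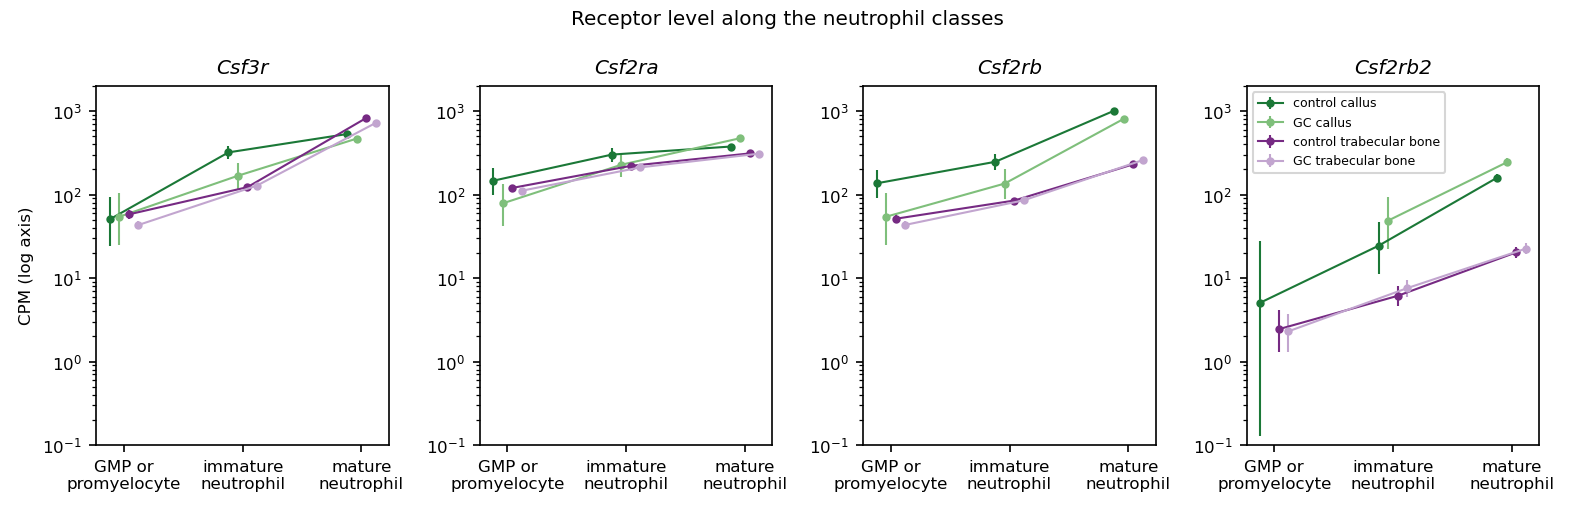
CPM of Csf3r, Csf2ra, Csf2rb and Csf2rb2 on a log axis in progenitors or promyelocytes, immature and mature neutrophils of the 4 libraries, with exact Poisson 95% intervals; values of 0 are left out. Csf3r climbs from 57.9 to 827 CPM in control trabecular bone, and Csf2ra from 120.1 to 311 CPM.

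Csf2ra, the chain that binds GM-CSF, was spread more evenly over myeloid cells. In trabecular bone it was at 311 and 309 CPM in mature neutrophils (control and GC), 282 and 249.7 CPM in monocytes, 221 and 212 CPM in immature neutrophils and 120.1 and 111 CPM in progenitors or promyelocytes. In callus it was at 376 and 473 CPM in mature neutrophils, 320.4 and 266 CPM in monocytes, 301 and 228 CPM in immature neutrophils and 303 and 194 CPM in cluster 15. Cluster 16 (148 and 182 CPM), macrophages (138 and 151 CPM) and osteoclasts, the bone-resorbing cells (52.2 and 71.3 CPM), were lower. Neighbours in this order did not all separate: in control callus the intervals of monocytes (298 to 344), immature neutrophils (248 to 363) and cluster 15 (241 to 377) overlapped.

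Csf2ra was also the member with the most RNA outside cells. Empty droplets held it at 350.4 CPM in control trabecular bone and 226 CPM in GC trabecular bone, above the 191 and 176 CPM of all cells together, and at 105 CPM in control callus against 30.9 CPM in its cells. Low Csf2ra values in lymphoid and skeletal classes, such as 36.6 CPM in control trabecular B cells, are therefore to be read beside that profile. Taking the empty-droplet profile off, which was possible in trabecular bone only, put the ratio of mature neutrophils to progenitors for Csf3r at 15.2 in control, against 14.3 with it. That ratio was not worked out for Csf2ra. Of 26 trabecular values of GC over control for the members, the same step put 2 outside their counting interval and changed the direction of 2. Of those at 1.5-fold or more, 1 was lost and 2 were gained.

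Csf2rb, the common beta chain, had the largest number of UMIs of the 6 genes, 20619. In callus it was at 1047 and 1192 CPM in cluster 16, 1010.5 and 806 CPM in mature neutrophils and 945 and 999 CPM in monocytes (control and GC). Plasmacytoid dendritic cells, which make type I interferon, were at 741 CPM in control callus, where 52 cells were found, against 8 in GC callus. Cluster 15 was at 558 and 524 CPM, macrophages at 379.9 and 343 CPM, osteoclasts at 298 and 348 CPM and immature neutrophils at 247 and 136 CPM.

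In trabecular bone the order of Csf2rb was headed by basophils, at 718 and 696 CPM. Mature neutrophils followed at 230.3 and 258 CPM, then monocytes at 205 and 174 CPM, immature neutrophils at 84.9 and 85.5 CPM, stem and progenitor cells at 68.9 and 53.2 CPM and progenitors or promyelocytes at 51.3 and 43.3 CPM. Plasmacytoid dendritic cells, at 234 CPM in control (185 to 293), could not be placed apart from mature neutrophils (220.0 to 241). After thinning, 18 of 28 control basophils and 21 of 42 GC basophils held a Csf2rb UMI, against 22.7% and 25.4% of mature neutrophils.

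Csf2rb2 followed Csf2rb at a lower level. It was highest in callus plasmacytoid dendritic cells, at 519.5 CPM in control, followed by cluster 16 at 319.8 and 431 CPM and monocytes at 216 and 345 CPM. Mature neutrophils were at 160.2 and 244 CPM, macrophages at 90.1 and 168 CPM, and osteoclasts at 86.5 and 128 CPM. In trabecular bone basophils were at 194 and 127 CPM and control plasmacytoid dendritic cells at 120.3 CPM, while mature neutrophils (20.4 and 22.6 CPM) and monocytes (22.0 and 13.2 CPM) were low.

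Since the beta chains were counted in the same cells, their ratio needs no scaling for depth. In control callus there were 0.701 UMIs of Csf2rb2 for each UMI of Csf2rb in plasmacytoid dendritic cells (0.555 to 0.883). Endothelial cells followed at 0.367 (0.166 to 0.753), from 11 Csf2rb2 and 30 Csf2rb UMIs, and these intervals overlapped. The ratio was 0.305 in cluster 16, 0.290 in osteoclasts, 0.237 in macrophages, 0.236 in chondrocytes and 0.229 in monocytes. It was 0.159 in mature neutrophils, 0.125 in hypertrophic chondrocytes, 0.0989 in immature neutrophils and 0.0872 in cluster 15. In control trabecular bone the ratio was 0.513 in plasmacytoid dendritic cells (0.340 to 0.765) and 0.270 in basophils. B cells were at 0.167 (0.0314 to 0.571) and stem and progenitor cells at 0.127 (0.0489 to 0.280). It was 0.108 in monocytes, 0.0885 in mature neutrophils, 0.0722 in immature neutrophils and 0.0476 in progenitors or promyelocytes. Plasmacytoid dendritic cells had the highest ratio in the control library of each tissue, among named classes with at least 20 UMIs of the pair, and their intervals stayed under 1.

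The ratio was higher in GC than in control callus in 4 classes whose intervals did not overlap. It went from 0.159 (0.141 to 0.178) to 0.303 (0.268 to 0.342) in mature neutrophils, from 0.229 (0.208 to 0.252) to 0.345 (0.316 to 0.377) in monocytes, from 0.237 (0.171 to 0.323) to 0.490 (0.363 to 0.655) in macrophages and from 0.236 (0.170 to 0.322) to 0.581 (0.450 to 0.748) in chondrocytes. Chondrocytes held Csf2rb2 at only 1.07 and 4.07 CPM. Of their 100 GC UMIs, 90 were in cluster 3, of 53 control and 1164 GC cells. Empty droplets of control callus held 28 Csf2rb2 and 68 Csf2rb UMIs, and none were available for GC callus. The part of such background in these ratios was not tested. Osteoclasts (0.290 and 0.367) and cluster 16 (0.305 and 0.361) had overlapping intervals. So did immature neutrophils (0.0989 and 0.360), B cells (0.0222 and 0.174) and sub-cluster 1 of cluster 20 (0.125 and 0.357). Cluster 15 was lower in GC, at 0.0872 and 0.0479, also with overlapping intervals. In trabecular bone the ratio was 0.0885 and 0.0873 in mature neutrophils, 0.108 and 0.0761 in monocytes and 0.270 and 0.183 in basophils, all with overlapping intervals.

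**Figure D3:**
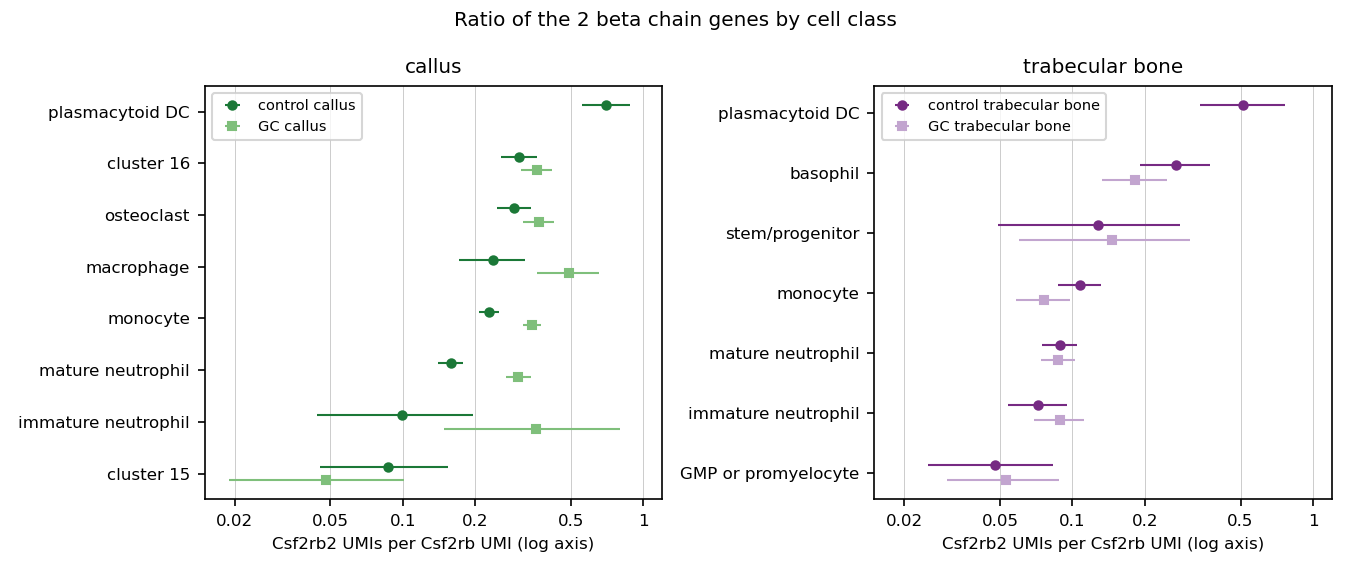
UMIs of Csf2rb2 per UMI of Csf2rb on a log axis, by cell class and tissue, for control (circles) and GC (squares) with exact conditional 95% intervals. Plasmacytoid dendritic cells stand highest (0.701 in control callus), and callus mature neutrophils move from 0.159 in control to 0.303 in GC.

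Il3ra, the private chain of the IL-3 receptor, had 1594 UMIs in all. Its highest level was in trabecular basophils, 186 CPM in control and 87.3 CPM in GC. Trabecular monocytes (45.1 and 31.9 CPM), control plasmacytoid dendritic cells (33.9 CPM), stem and progenitor cells (32.6 and 18.4 CPM) and progenitors or promyelocytes (21.4 and 16.1 CPM) followed. In callus it was highest in endothelial cells, the lining of vessels, at 44.3 CPM (26.7 to 69.2) in control and 28.1 CPM (14.95 to 48.0) in GC, while monocytes were at 16.6 and 14.3 CPM and mature neutrophils at 0.974 and 2.12 CPM.

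Il5ra was barely detected, with 56 UMIs in 22040 cells. In callus B cells it had 20 UMIs in control and 12 in GC, which is 15.9 CPM (9.74 to 24.6) and 17.6 CPM (9.07 to 30.7). Control trabecular B cells had 8 UMIs (4.25 CPM), and 3 UMIs fell on the 16 B cells of GC trabecular bone. Plasma cells held 2 UMIs in callus and 3 in trabecular bone, and 1 of the 56 UMIs was in basophils. IL-5 is best known for eosinophils, and no cluster was named as such. Il5ra did not reach the minimum of 50 UMIs in any comparison.

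The same class differed between the tissues by more than the counting error. In control libraries, monocytes held Csf2rb2 at 216 CPM in callus and 22.0 CPM in trabecular bone, a ratio of 9.82 (7.94 to 12.2), and Csf2rb at 945 and 205 CPM, a ratio of 4.61 (4.28 to 4.98). Mature neutrophils held Csf2rb2 at 160.2 and 20.4 CPM (ratio 7.86, 6.48 to 9.56) and Csf2rb at 1010.5 and 230.3 CPM (ratio 4.39, 4.12 to 4.68). Csf3r went the other way in both classes, with ratios of 0.643 (0.603 to 0.686) in mature neutrophils and 0.634 (0.501 to 0.795) in monocytes, and Il3ra had a ratio of 0.369 (0.256 to 0.519) in monocytes. Csf2ra stayed within 1.5-fold in both classes, at 1.21 and 1.13, and was lower in callus B cells, at 8.77 against 36.6 CPM (ratio 0.239, 0.114 to 0.455). In B cells 55.6% of all genes tested were past 1.5-fold, and Csf2rb was higher in callus, at 35.9 against 9.56 CPM (ratio 3.75, 2.13 to 6.89). Empty droplets held Csf2ra at 105 CPM in control callus and 350.4 CPM in control trabecular bone, whose part in the B cell ratio was not tested.

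These tissue ratios stand on a wide background. Among all genes tested, 63.3% were past 1.5-fold between the control tissues in mature neutrophils, 59.8% in monocytes and 56.9% in immature neutrophils, so being past that fold is no result about the members. On the log2 scale with 5 CPM added, the median gene was at 0.515 in mature neutrophils, 0.135 in immature neutrophils and -0.333 in monocytes, and Csf2rb2 stood 2.19, 1.27 and 3.37 above it. Csf2rb stood 1.59, 1.35 and 2.51 above it. Csf2ra in mature neutrophils was at 0.27 as measured and at -0.25 relative to the median gene, so its direction turned. Csf3r kept its direction in mature neutrophils (-1.15) and monocytes (-0.27), and so did Il3ra in monocytes (-0.88).

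Immature neutrophils had the callus higher for Csf3r too, at 320.5 against 122.8 CPM (ratio 2.61, 2.14 to 3.16), beside 2.91 for Csf2rb and 3.99 (1.73 to 8.15) for Csf2rb2, the last from 9 and 54 UMIs; after thinning each cell to 1000 UMIs its direction turned. In GC libraries the ratio of Csf3r was 1.31 (0.888 to 1.87). The classes were not the same in make-up. The summed level of the 13 mature neutrophil markers in mature neutrophils was 64929 and 60548 CPM in callus (control and GC) against 367148 and 265240 CPM in trabecular bone. The 9 chondrocyte markers, none at 0 in callus mature neutrophils, summed to 4698 and 2311 CPM there and to at most 0.513 CPM in those of trabecular bone, with 5 and 6 of them at 0. In immature neutrophils the 10 immature neutrophil markers summed to 42711 and 68037 CPM in callus against 121083 and 109651 CPM in trabecular bone. In monocytes the 9 monocyte markers summed to 4608 and 4341 CPM in callus against 8210 and 8307 CPM in trabecular bone. Their part in the ratios was not tested, and tissue and library cannot be told apart.

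The GC libraries gave the same tissue order for the beta chains. Csf2rb2 was at 345 against 13.2 CPM in monocytes (ratio 26.1, 20.2 to 34.2) and at 244 against 22.6 CPM in mature neutrophils (ratio 10.8, 8.99 to 13.1). Csf2rb had ratios of 5.75 (5.30 to 6.24) and 3.12 (2.90 to 3.36), and Csf3r 0.465 and 0.649. Csf2ra had ratios of 1.07 (0.960 to 1.18) in monocytes and 1.53 (1.40 to 1.67) in mature neutrophils, the latter past the fold. Relative to the median gene that value was at 0.52 on the log2 scale, within the fold. Among all genes tested between the GC libraries, 64.2% were past the fold in monocytes and 60.2% in mature neutrophils. Plasmacytoid dendritic cells, compared in control only, had ratios of 3.16 (2.41 to 4.19) for Csf2rb and 4.32 (2.998 to 6.35) for Csf2rb2. In that class 44.9% of all genes tested were past the fold.

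**Figure D4:**
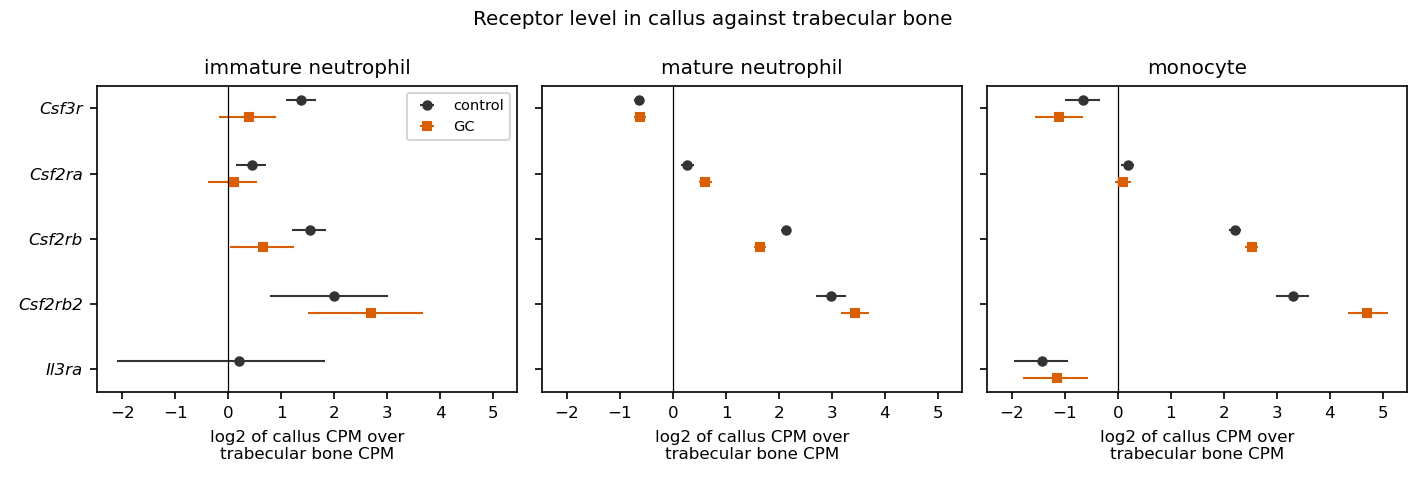
Log2 of callus CPM over trabecular CPM for the receptor genes in immature neutrophils, mature neutrophils and monocytes, for control (circles) and GC (squares) libraries, with exact conditional 95% intervals; comparisons with a count of 0 are left out. Csf2rb and Csf2rb2 lie above 0 in the 3 classes, and Csf3r lies below 0 in mature neutrophils and monocytes.

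GC and control libraries were compared within each class for genes with at least 50 UMIs over both, and a gene was called past the fold at 1.5-fold or more on the CPM + 5 scale. Of 58 pairs of a member and a class or cluster, 4 were higher and 7 lower in GC, and 47 stayed within the fold. The 4 higher and 4 of the lower were among 32 pairs of callus, and 3 of the lower among 26 pairs of trabecular bone. The share of all genes past the fold is given beside each class.

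Csf2rb2 made up 3 of the 4 higher pairs. In callus mature neutrophils it was at 160.2 CPM in control and 244 CPM in GC, a ratio of 1.52 (1.31 to 1.78), in a class where 27% of all genes tested were past the fold. In callus monocytes it was at 216 and 345 CPM, a ratio of 1.59 (1.42 to 1.79), where 20.5% of genes were. Beside it the chondrocyte markers went from 2911 to 922 CPM and the immature neutrophil markers from 702 to 1566 CPM in these monocytes. In callus macrophages it was at 90.1 and 168 CPM, a ratio of 1.86 (1.28 to 2.72), where 21.3% were, and chondrocyte markers went from 2765 to 711 CPM. The part of these markers was not tested. Osteoclasts at 1.48 (1.22 to 1.79, 10.8% of genes past the fold) and cluster 16 at 1.35 (1.11 to 1.64, 23.3%) stayed within it. All 6 callus units tested had the interval of the Csf2rb2 ratio above 1.

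The callus difference in Csf2rb2 was also present inside clusters that both libraries share. In monocyte cluster 5, with 512 control and 474 GC cells, the ratio was 1.62 (1.44 to 1.82), and in the largest macrophage sub-cluster, of 47 and 50 cells, it was 2.12 (1.21 to 3.81). Mature neutrophils were split by library, with 1354 control and 67 GC cells in cluster 0 and 207 control and 1150 GC cells in cluster 1. There the ratios were 1.17 (0.661 to 1.94) and 1.47 (1.06 to 2.09), so the value rests mainly on cells of different clusters. Beside it, the 9 chondrocyte markers summed to 4698 and 2311 CPM in callus mature neutrophils and the 10 erythroblast markers to 903 and 4800 CPM, whose part in the ratio was not tested. The mature neutrophil ratio lay close to the limit and was under it with a stricter mitochondrial limit, with no doublets removed, with coarser clustering or with a pseudocount of 20 CPM. The macrophage ratio was under it with no doublets removed. In callus chondrocytes Csf2rb2 went from 1.07 to 4.07 CPM, a ratio of 3.795 (2.68 to 5.44) that stayed within the fold once 5 CPM was added. Of the 100 UMIs in GC chondrocytes, 90 were in cluster 3, which held 1164 GC and 53 control cells.

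Over all callus cells, Csf2rb2 went from 18.7 CPM in control to 33.5 CPM in GC, and over all trabecular cells from 12.5 to 10.7 CPM. These pooled values also depend on the mix of classes. Callus chondrocytes, at 1.07 and 4.07 CPM, supplied 46580259 of 80651984 UMIs in control and 24547406 of 55055329 in GC, whose part was not tested. Trabecular mature neutrophils had 20.4 and 22.6 CPM (ratio 1.11, 0.887 to 1.38), where 22.1% of all genes were past the fold. Trabecular monocytes had 22.0 and 13.2 CPM (ratio 0.6002, 0.433 to 0.826), where 3.27% of all genes were; with 5 CPM added the log2 ratio was -0.57, just within the fold. Beside this and the other differences in trabecular monocytes, the immature neutrophil markers went from 2919 to 8378 CPM and the erythroblast markers from 1175 to 4031 CPM, whose part was not tested. Inside monocyte cluster 10, of 175 and 164 cells, the Csf2rb2 ratio was 0.513 (0.304 to 0.843). In trabecular basophils, a class of 29 control and 43 GC cells, Csf2rb2 was lower, at 194 and 127 CPM (ratio 0.656, 0.433 to 0.997). With 5 CPM added its log2 ratio was -0.589, just past the fold, where 17.6% of all genes were. Relative to the median gene of basophils, at -0.045, it was within the fold.

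Csf2rb was past the fold in callus immature neutrophils and in sub-cluster 1 of callus cluster 20. In immature neutrophils it was at 247 and 136 CPM, a ratio of 0.549 (0.338 to 0.863), where 36.7% of all genes were past the fold. In that sub-cluster, of 25 control and 41 GC cells, it was at 105 and 273 CPM, a ratio of 2.59 (1.79 to 3.81), where 23.7% were and the median gene was at -0.14 on the log2 scale. In callus mature neutrophils it was at 1010.5 and 806 CPM (ratio 0.797, 0.741 to 0.858). That ratio was 0.663 (0.502 to 0.859) in cluster 0 and 1.01 (0.865 to 1.18) in cluster 1. Callus monocytes were at 945 and 999 CPM (ratio 1.06, 0.994 to 1.12).

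Csf3r was lower in callus immature neutrophils, at 320.5 and 168 CPM (ratio 0.525, 0.342 to 0.785), and in callus monocytes, at 42.0 and 25.1 CPM (ratio 0.597, 0.415 to 0.848). The immature neutrophils of the libraries came mostly from different sub-clusters: sub-cluster 1 of cluster 11 held 108 control and 3 GC cells at 419.6 CPM, and sub-cluster 2 held 22 control and 59 GC cells at 124.7 CPM. Beside this, the summed level of the 10 immature neutrophil markers was 42711 CPM in control and 68037 CPM in GC, and that of the 13 mature neutrophil markers 224720 and 190177 CPM. Sub-cluster 0 of the same cluster, of 4 control and 111 GC cells at 448.9 CPM, was left unnamed, since its 10 leading genes held 3 mature neutrophil markers and 4 of other classes. When it was joined to the class, an alternative added after its values were seen, the log2 ratio of Csf3r was 0.030 and that of Csf2rb 0.18, so both calls in callus immature neutrophils ended and both directions turned.

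In mature neutrophils Csf3r stayed within the fold, with ratios of 0.881 (0.799 to 0.971) in callus and 0.873 (0.842 to 0.905) in trabecular bone. Both compare mainly cells of different clusters. Inside callus clusters 0 and 1 the ratios were 1.12 (0.834 to 1.49) and 0.963 (0.788 to 1.18). In trabecular cluster 1, of 841 control and 33 GC cells, the ratio was 0.742 (0.625 to 0.875). The median gene of trabecular mature neutrophils was at 0.303 on the log2 scale, with 1366 genes higher and 182 lower past the fold. Relative to it Csf3r was at -0.50, Csf2ra at -0.31, and Csf2rb and Csf2rb2, at 0.16 and 0.12 as measured, turned to -0.14 and -0.18. In trabecular progenitors or promyelocytes, where 1.8% of all genes were past the fold, Csf3r was at 57.9 and 43.2 CPM (ratio 0.746, 0.634 to 0.877), within the fold. In trabecular immature neutrophils (4.73% of genes) the 5 members tested had ratios from 0.959 to 1.35, and each interval included 1.

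Csf2ra was past the fold in cluster 15 of callus, at 303 and 194 CPM (ratio 0.639, 0.444 to 0.913), where 23.1% of all genes were. In callus mature neutrophils it was at 376 and 473 CPM (ratio 1.26, 1.13 to 1.40), on the other side of 1 from Csf3r and Csf2rb in that class. Its ratio was 1.09 (0.752 to 1.53) in cluster 0 and 1.22 (0.983 to 1.53) in cluster 1. Beside it, in clusters 0 and 1, Csf3r had ratios of 1.12 and 0.963 and Csf2rb of 0.663 and 1.01. Csf2ra was also counted as lower in trabecular B cells, where 62.4% of all genes were past the fold: 69 UMIs in 311 control cells stood against 0 in 16 GC cells, whose interval reaches 74.0 CPM, and no fold is given. Il3ra was lower in trabecular basophils, at 186 and 87.3 CPM (ratio 0.470, 0.293 to 0.748), where 17.6% of genes were past the fold. In trabecular monocytes it was at 45.1 and 31.9 CPM (ratio 0.708, 0.572 to 0.874), within the fold.

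**Figure D5:**
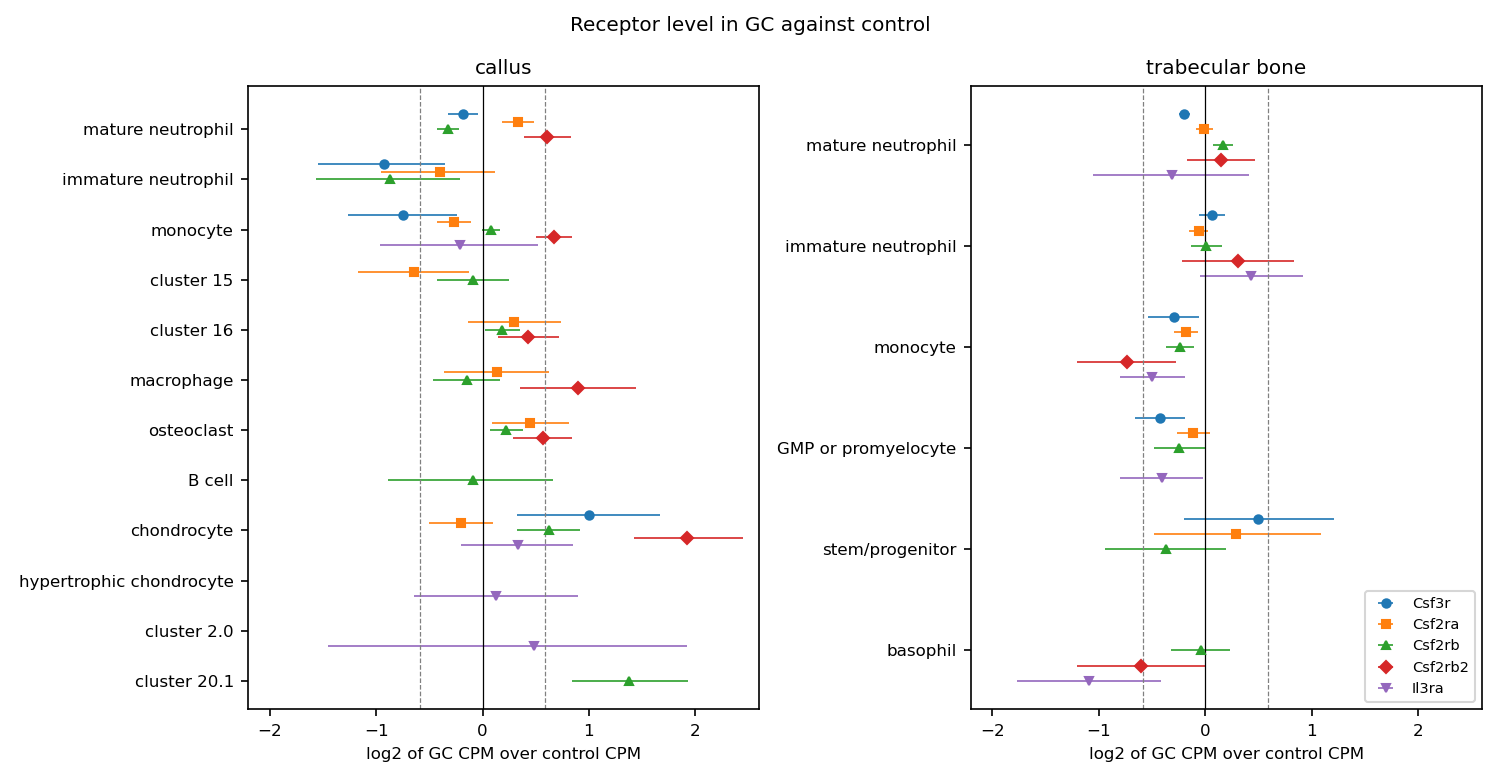
Log2 of GC CPM over control CPM for each member with at least 50 UMIs in a class of callus (left) or trabecular bone (right), with exact conditional 95% intervals; dashed lines mark 1.5-fold and trabecular B cells are left out. Csf2rb2 (diamonds) lies right of 0 in each callus class shown and left of 0 in trabecular monocytes and basophils; the counts in the text use CPM + 5, which draws low values such as those of chondrocytes toward 0.

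The cytokines that these receptors bind were scarce in the same cells. Il3 had 1 UMI and Il5 had 31 UMIs in all. Of the Il5 UMIs, 12 were in control callus T cells (13.7 CPM), 6 in those of GC callus and 6 in those of control trabecular bone. Csf3, which encodes G-CSF, had 210 UMIs; it was at 14.0 CPM (6 UMIs) in control callus endothelial cells and at 0.898 and 9.78 CPM (7 and 75 UMIs) in trabecular mature neutrophils. The latter ratio was 10.9 (5.03 to 28.0). Csf2, which encodes GM-CSF, had 562 UMIs, most of them in callus chondrocytes, where it was at 7.54 CPM (351 UMIs) in control and 3.14 CPM (77 UMIs) in GC, a ratio of 0.416 (0.321 to 0.534). In that class 4.83% of all genes tested were past the fold. Its make-up differed between the libraries: cluster 3 held 53 control and 1164 GC cells, and cluster 6 held 667 and 141. Median depth was 25621 UMIs in control and 5296 in GC chondrocytes. The part of these differences in the Csf2 ratio was not tested. Control trabecular T cells held Csf2 at 28.2 CPM (9 UMIs).

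Of 32 genes of the receptors' signalling pathway (ligands, kinases, STAT factors, adaptors, inhibitors and targets), 22 could be tested in callus mature neutrophils, where none was higher and 6 were lower in GC. These were Stat3, Stat5b, Socs3, Cish, Mcl1 and Osm; their share, 27.3%, was near that of all genes. Osm, a cytokine gene that STAT5 activates, was at 984 and 213 CPM (ratio 0.217, 0.191 to 0.244) and Socs3, an inhibitor of the G-CSF receptor, at 386 and 129.8 CPM (ratio 0.337, 0.285 to 0.396). Cish, another STAT5 target that damps the signal, was at 40.9 and 10.6 CPM. The list's median log2 ratio was -0.15, beside 0.0035 for all genes.

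Callus monocytes had 0 of 22 pathway genes higher and 5 lower (Fes, Stat3, Stat5b, Cish and Osm), 22.7% of the list beside 20.5% of all genes. Cish was at 67.8 and 2.05 CPM there, from 163 and 4 UMIs, and Osm at 511 and 117 CPM (ratio 0.229, 0.198 to 0.264). In trabecular mature neutrophils 27 were tested, and 6 were higher (Csf3, Tyk2, Gab2, Ptpn11, Socs3 and Bcl2l1) and none lower, 22.2% of the list beside 22.1% of all genes, with a list median of 0.33 beside 0.303. Of these, Csf3 reached the minimum of UMIs through the GC library only. Socs3 was at 96.2 and 178 CPM (ratio 1.85, 1.69 to 2.02) and the survival gene Bcl2l1 at 69.4 and 186 CPM (ratio 2.69, 2.43 to 2.97). In trabecular monocytes, whose marker values are given above, Socs3 and Ccnd2 were higher and Osm was lower. Trabecular immature neutrophils had 1 of 25 higher (Bcl2l1) and 1 lower (Cish), beside 4.73% of all genes, and progenitors or promyelocytes 0 of 25 in either direction, beside 1.8%. Callus immature neutrophils had 1 of 12 higher (Cbl) and 5 lower (Socs3, Pim1, Bcl2l1, Mcl1 and Osm), beside 36.7% of all genes. Callus macrophages had 0 and 2 of 14 (Socs3 and Osm), beside 21.3%, and osteoclasts 2 (Socs1 and Myc) and 1 (Osm) of 20, beside 10.8%. Cluster 16 had 1 (Stat5a) and 3 (Grb2, Socs3 and Cish) of 16 beside 23.3%, cluster 15 had 0 and 4 of 12 (Cbl, Socs3, Pim1 and Osm) beside 23.1%, and sub-cluster 1 of cluster 20 had 3 (Jak2, Stat5a and Ptpn11) and 0 of 13 beside 23.7%. Trabecular basophils had 1 of 10 on each side beside 17.6%, and B cells 5 and 7 of 18 beside 62.4%.

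The genes whose levels followed each member most closely were ranked over 31 class and tissue values by Pearson's r of log2(CPM + 5), among 11483 genes; the values share their 4 libraries, so r is a description. Closest to Csf3r were Trem1 (0.96), Msrb1 (0.96), which is also on the mature neutrophil marker list, and Mcemp1 (0.94). Among the closest to Csf2ra were Arl11 (0.94) and Igsf6 (0.93). Closest to Csf2rb were Ptafr (0.86), Gm46224 (0.86) and Tyrobp (0.85), and closest to Csf2rb2 were Havcr2 (0.90), Nceh1 (0.88) and Gm46224 (0.82). Il3ra had lower values, with Tmem50a (0.76), Tagln2 (0.75) and Dusp23 (0.75). Il5ra, from its 56 UMIs, had the B cell genes Ms4a1 (0.94) and Cd79a (0.88) among its closest. Among the members themselves, r was 0.91 between Csf2rb and Csf2rb2, 0.86 between Csf3r and Csf2ra, 0.82 between Csf2ra and Csf2rb and 0.33 between Csf3r and Csf2rb2.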

How the data were processed

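Droplet-based single-cell RNA-seq was read for 4 libraries, 1 for each tissue and condition. The values are UMI counts per gene and barcode as deposited by the authors. Per the file headers they were made with Cell Ranger 4, and the submitters' notes name Cell Ranger 5.0.1, Seurat 3.2.0 and mm10. Libraries held 41239842 to 95852254 UMIs. The GC callus file lists 7762 barcodes, the smallest with 500 UMIs, so its empty droplets could not be used. The other 3 list 6794880 barcodes each.

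In the libraries that list empty droplets, cells were called from a UMI cutoff with a test against the empty-droplet profile. In GC callus all 7762 listed barcodes were taken as called. The callus libraries were thus called in different ways, whose part in the callus ratios was not tested. Cells were kept with at least 200 genes and at most 10% mitochondrial UMIs. Simulated doublets marked 125 to 428 barcodes per library, which were removed. Cells of a tissue were clustered (2000 variable genes, 30 principal components, 15 neighbours, Leiden resolution 1; scikit-learn 1.9.0, leidenalg 0.10.2, igraph 0.11.9) without the 6 receptor genes or their pathway. The rule that named clusters from 27 marker lists was set after the clusters were seen. The members, marker lists and pathway list were chosen with earlier results of these data known.

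CPM has an exact Poisson 95% interval, a ratio an exact conditional one, and a share of cells an exact Clopper-Pearson one (scipy 1.17.1). They cover counting error only. Folds were taken on CPM + 5 for genes with at least 50 UMIs and at least 15 cells per library. With 1 library per group no p-value was computed. On simulated counts the fold recovered 92% of raised and 86% of lowered genes changed 2-fold in trabecular mature neutrophils, and 99% and 91% in trabecular monocytes, over 100 genes each. Both sides were drawn from the control counts with counting error only, so differences of library or make-up were not simulated. All 6350 unchanged genes stayed within the fold in these mature neutrophils, whereas 22.1% of genes were past it between the real libraries. The genes named are the 6 members, the pathway genes past the fold and the 3 genes most like each member, ranked among genes with at least 500 UMIs. A few results that this rule names are not reported here. Sequences and positions are from RefSeq and GENCODE on GRCm38. No protein sequence and no Csf2rb promoter was used here.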

Additional observations from a re-analysis of the deposited data

Results flagged for a closer look

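A pair of results stood out because the GC libraries lay on opposite sides of their controls in the tissues. The difference between tissues was not tested in either case, since each group holds 1 library. In mature neutrophils the log2 ratio of Csf2rb, GC over control, was -0.32 in callus and 0.16 in trabecular bone, a gap of -0.4875. Relative to the median gene of its class the trabecular value was -0.14 and the callus value -0.33, so that the sides were then the same. In monocytes the log2 ratio of Csf2rb2 was 0.66 in callus and -0.57 in trabecular bone, a gap of 1.2298. Relative to the median gene these were 0.62 and -0.56.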

How the results depend on the processing

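With 1 library per group, no value has replicate error and none could be left out in turn. No paired analysis was possible because the labels give 1 sample per group and no test was run. Beside the settings used, 16 alternatives were planned and 1 was added after seeing the data, the joining of an unnamed callus cluster to the immature neutrophils.

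Of 51 pairs of a member and a named class tested (numbered clusters left out), 9 were past the fold between GC and control; the count was 14 with no doublets removed, 17 with the mean over cells of CPM, 19 with each cell thinned to 1000 UMIs, 16 with at least 20 UMIs, 40 with no minimum of UMIs and 2 with a fold of 2. It stayed within 1.5 times of 9 (6 to 11) under the others. Between the control tissues 14 pairs were past the fold, against 27 with no minimum of UMIs and 1 with the UMI cutoff alone, which kept fewer classes. Of all genes tested, 1.8% to 62.4% were past the fold between GC and control, depending on the class. Between the control tissues this share was 44.9% to 63.3% in the classes with a member tested. Neither count alone is therefore a result about the members. The UMI cutoff alone also gave 0.105 for the Csf2rb2 to Csf2rb ratio of control callus mature neutrophils (0.159), 598 CPM for Csf3r in control trabecular mature neutrophils (827) and 10.7 for its ratio to progenitors (14.3). In control callus the cutoff was 7534.9 UMIs, beside a median of 1269 UMIs in mature neutrophils, so the value of 0.105 rests on few of these cells. GC callus had no such cutoff. The Csf3r level was 848 CPM with at least 500 genes, 872 with no doublets removed, 855 and 802 at Leiden resolutions 0.5 and 2, 1043 as a mean over cells, 1003 after thinning and 854 without hemoglobin, mitochondrial and ribosomal protein genes. The ratio to progenitors was 18.3 as a mean over cells and 10.8 without those genes. Among values past the fold, directions turned in 3 cases: the Csf2rb2 log2 ratio of control callus over trabecular immature neutrophils was -0.34 after thinning, and with the unnamed cluster joined the log2 GC ratios in callus immature neutrophils were 0.030 for Csf3r and 0.18 for Csf2rb. Among values within the fold the sign changed in 46 comparisons with an alternative. The total of 1140 comparisons also holds values past the fold. It also holds settings that cannot change a sign: the pseudocounts, the minimum numbers of UMIs and the fold of 2, each with 76 comparisons. Thinning to 1000 UMIs accounts for 12 of the 46, and it put 36 of 76 values outside their counting interval. Centring on the median gene accounts for 6 of the 46. Among them are Csf2ra between the tissues (0.27 to -0.25) and, GC over control, Csf2rb (0.16 to -0.14) and Csf2rb2 (0.12 to -0.18) in trabecular bone, each in mature neutrophils. Apart from the settings that themselves change the number of cells, classes or genes tested, the cause was not tested. In callus macrophages (78 and 73 cells) and trabecular basophils (29 and 43 cells) the number of UMIs limited the precision.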
